A study of Mus musculus with 14 samples.

Results

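The 6 Dlx genes of the mouse lie in 3 pairs, Dlx1-Dlx2 on chromosome 2, Dlx3-Dlx4 on chromosome 11 and Dlx5-Dlx6 on chromosome 6, and their H3K27me3 was followed here across 3 deletions in mouse embryonic stem cells (mESCs). H3K27me3, trimethylation of a lysine in histone H3, is placed by Polycomb repressive complex 2 at silent developmental genes. All peaks within 10 kb of the RefSeq gene body of a Dlx gene were taken, which gave 42 of the 74458 peaks in the table. Of these, 12 lay at Dlx1-Dlx2, 14 at Dlx3-Dlx4 and 16 at Dlx5-Dlx6. H3K27me3 was profiled by Cut&Tag, in which an antibody guides the transposase Tn5 to cut next to the mark. The cells carried a homozygous CRISPR-Cas9 deletion of a Polycomb loop anchor at 1 of 3 loci, Hoxa (n = 3 libraries), Wnt6 (n = 2) or Hmx1 (n = 2), and all were grown with LIF on CD1 feeder cells. The table has no column for unedited cells, so each deletion was compared with the other 2 pooled. The labels do not say which libraries come from separate clones or cultures. The p-values then measure the spread between these libraries, and a difference between deletions cannot be told apart from a difference between clones.

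Dlx genes encode homeodomain transcription factors related to Distal-less of the fly. Each pair is arranged so that both genes are transcribed towards each other, with shared enhancers between and around them. Dlx1, Dlx2, Dlx5 and Dlx6 act in the forebrain, where they drive the formation of GABAergic interneurons, and in the branchial arches, where Dlx5 and Dlx6 give the lower jaw its identity. Dlx3 acts in skin, hair, tooth, bone and placenta, and Dlx4 is expressed in few tissues. Each pair shares a chromosome with a Hox cluster. Dlx1-Dlx2 lay 3.12 Mb from Hoxd and Dlx3-Dlx4 lay 1.05 Mb from Hoxb. Dlx5-Dlx6 lay 45.3 Mb from Hoxa on the chromosome that carries the Hoxa deletion, so it is the pair in cis to a deletion. The question put to the data was whether H3K27me3 at Dlx5-Dlx6 differed in the Hoxa deletion, and whether it did so apart from the pairs on other chromosomes.

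H3K27me3 in mESCs is found mostly over DNA rich in CpG, and the promoter sequences below show CpG-rich and CpG-poor promoters at the Dlx loci. They are the 250 bases before an annotated start, 5′ to 3′ on the strand of the gene, from RefSeq (GRCm38.p6), with each CpG in capitals. The table of promoters held Dlx1 and Dlx2 but not Dlx3, Dlx4, Dlx5 and Dlx6. The first is that of Dlx1 (chr2:71529195-71529444, plus strand), which lies inside the longest annotated Dlx1 gene body. The second is that of Dlx2 (chr2:71546755-71547004, minus strand). The third is a promoter of Dlx6os1 (chr6:6869534-6869783, minus strand), a noncoding RNA transcribed across Dlx6, which lies between Dlx6 and Dlx5.
Dlx1: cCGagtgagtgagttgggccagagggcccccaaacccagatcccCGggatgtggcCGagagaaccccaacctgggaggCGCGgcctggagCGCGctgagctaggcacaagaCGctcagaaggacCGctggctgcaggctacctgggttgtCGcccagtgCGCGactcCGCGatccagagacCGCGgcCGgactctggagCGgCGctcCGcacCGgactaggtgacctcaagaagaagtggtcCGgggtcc
Dlx2: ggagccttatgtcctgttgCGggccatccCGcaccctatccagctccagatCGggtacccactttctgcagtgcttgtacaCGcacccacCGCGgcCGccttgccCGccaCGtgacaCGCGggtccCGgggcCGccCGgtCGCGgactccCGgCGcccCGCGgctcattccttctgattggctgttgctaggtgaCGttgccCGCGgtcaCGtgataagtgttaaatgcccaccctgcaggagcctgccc
Dlx6os1: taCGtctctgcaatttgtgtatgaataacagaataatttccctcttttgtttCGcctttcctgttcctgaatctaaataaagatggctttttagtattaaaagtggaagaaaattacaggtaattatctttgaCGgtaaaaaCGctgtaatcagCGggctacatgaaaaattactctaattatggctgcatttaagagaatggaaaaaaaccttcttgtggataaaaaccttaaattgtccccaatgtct
The Dlx1 promoter holds 22 CpG and lay whole within the strongest peak of its pair. The Dlx2 promoter holds 24 CpG, and 247 of its 250 bases lay within a peak of 154 CPM. The Dlx6os1 promoter holds 5 CpG and overlapped no peak, as did a second Dlx6os1 promoter with 3 CpG. The median over all promoters was 6 CpG, and the promoters of Dlx6os2 and Dlx4os, just above it, overlapped a peak. The promoter of Dlx6os2 holds 7 CpG and lay whole within the strongest Dlx6 peak, of 134 CPM, and that of Dlx4os holds 7 CpG and lay with 105 bases in the strongest Dlx4 peak. CPM is the count of a peak relative to the total over all peaks of its library (counts per 1000000), scaled by TMM factors. Of all 32841 promoters in the table, 37.8% hold at least 10 CpG, and 83.2% of those overlapped a peak against 17.7% of the others. The homeodomain core motif TAATT, searched on both strands with overlaps allowed, occurred 7 times in the printed Dlx6os1 promoter and in neither Dlx promoter. The motif occurs in 25.0% of all promoters of this length. A TAATTA site counts on both strands. The printed Dlx6os1 promoter has 33.2% G and C bases, against 68% in Dlx1 and 66.4% in Dlx2. The part of base content in the motif count was not tested.

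The 3 pairs carried strong H3K27me3 in every library. The 42 peaks had a median of 28.7 CPM against 3.80 CPM over all peaks, and a median width of 690.5 bp against 476 bp. Of the 42 peaks, 20 were among the strongest 10% of all peaks, none was among the strongest 1%, and 1 lay below the median of all peaks. Levels are compared below per length, as CPM per kb of peak. By pair, the level was 72.9 ± 3.44 at Dlx1-Dlx2, 58.7 ± 3.38 at Dlx5-Dlx6 and 49.9 ± 1.50 CPM per kb at Dlx3-Dlx4 (SD, n = 7 libraries). The ranges over libraries did not overlap between pairs. As these are bulk cells, fewer cells or alleles with the mark and less mark per cell cannot be told apart.

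The pairs differed in where the mark lay. At Dlx1-Dlx2, peaks on the gene bodies held 53.7% of the counts and the 4 peaks between the genes held 36.5%. At Dlx5-Dlx6, the gene bodies held 55.3%, the 2 peaks between the genes 20.2% and the 9 peaks outside the pair 24.5%. At Dlx3-Dlx4, the gene bodies held 70.5% and the 5 peaks between the genes 11.5%. The level between the genes was 70.1 CPM per kb at Dlx1-Dlx2 and 77.0 at Dlx5-Dlx6, but 27.3 at Dlx3-Dlx4. Peaks with gaps of at most 5 kb were joined outward from the strongest peak of each pair. Dlx1-Dlx2 lay in a run of 34.4 kb with 13 peaks, and 15 of the 16 Dlx5-Dlx6 peaks lay in a run of 37.7 kb with 18 peaks. At Dlx3-Dlx4 the run lay around Dlx4, spanned 13.1 kb and held 6 of the 14 peaks. The peaks around Dlx3 (chr11:95118260-95131067) lay apart from it, and their own run was not measured.

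**Figure D1:**
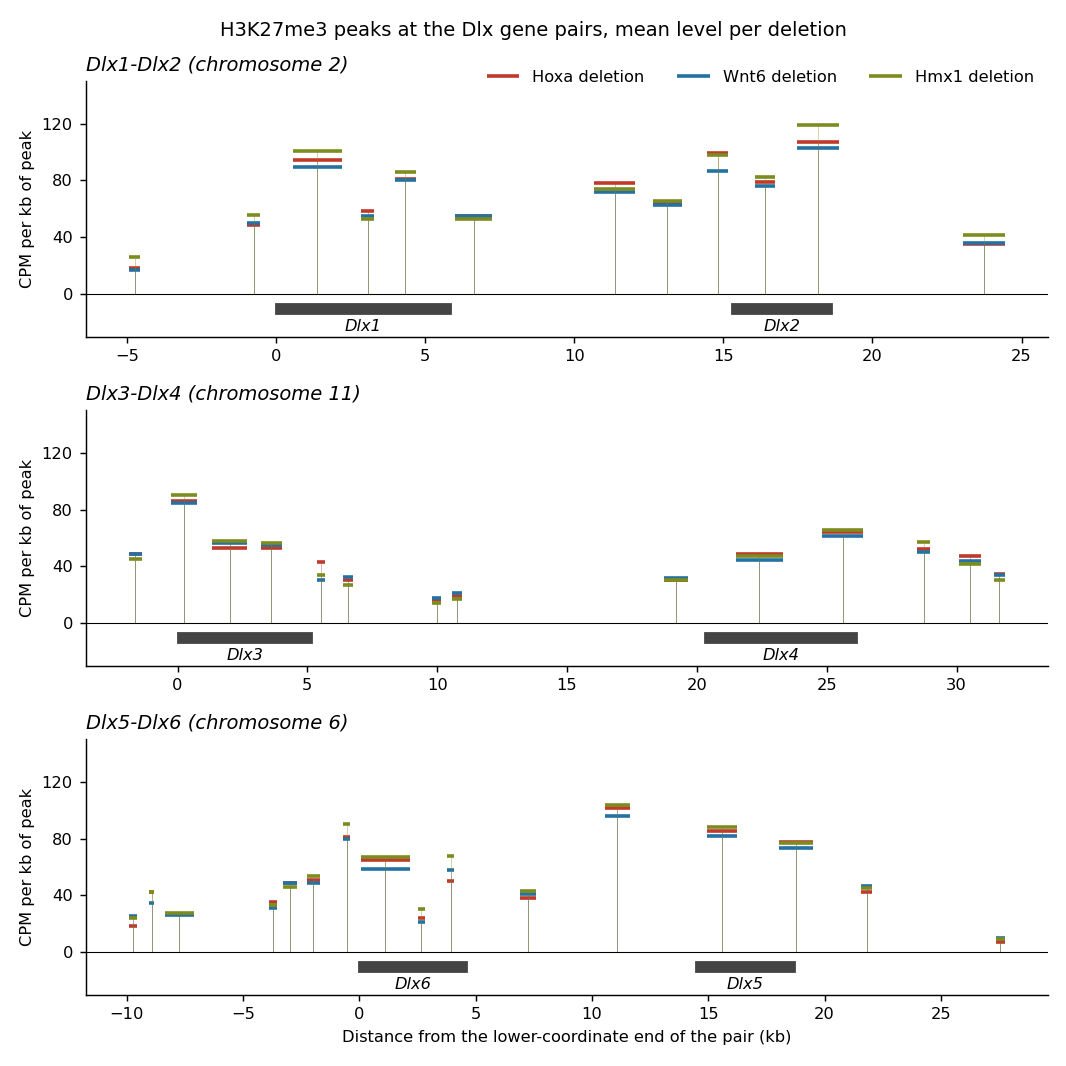
H3K27me3 peaks at the 3 Dlx pairs, as the mean CPM per kb of peak in each deletion (y axis) against the distance in kb from the lower-coordinate end of the pair (x axis). Horizontal bars span the peaks, grey boxes are gene bodies, and the bars of the 3 deletions lie close together at most peaks, with a sparse stretch between Dlx3 and Dlx4.

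The strongest peak of each pair sat on a gene body. At Dlx1 (chr2:71528681-71530331, positions as deposited) it had 158, 149 and 159 CPM in the Hoxa deletion, 157 and 138 CPM in the Wnt6 deletion and 168 and 164 CPM in the Hmx1 deletion. At Dlx4 (chr11:95144948-95146502) it had 105, 96.4 and 96.2 CPM in the Hoxa deletion, 102 and 89.5 CPM in the Wnt6 deletion and 95.2 and 109 CPM in the Hmx1 deletion. At Dlx6 (chr6:6863378-6865489) it had 143, 133 and 134 CPM in the Hoxa deletion, 135 and 113 CPM in the Wnt6 deletion and 143 and 140 CPM in the Hmx1 deletion. In all 3 of these peaks the Hoxa libraries overlapped the others, and replicate 2 of the Wnt6 deletion was the lowest. Its library is the deepest of the 7. Over the 17 Dlx peaks with more than 50 CPM, the highest library exceeded the lowest by 1.12 to 1.34 times.

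Per gene, summed over the peaks within 10 kb, the order of levels was Dlx1, Dlx2, Dlx5, Dlx6, Dlx3 and Dlx4. Both genes of a pair share peaks, 4 at Dlx1-Dlx2, 1 at Dlx3-Dlx4 and 2 at Dlx5-Dlx6, so their values are not independent. Dlx1 (chromosome 2, 71528113 to 71533981) had 75.0, 71.2 and 72.3 CPM per kb in the Hoxa deletion, 72.7 and 65.7 in the Wnt6 deletion and 72.7 and 75.5 in the Hmx1 deletion. Dlx2 (chromosome 2, 71543408 to 71546754) had 74.0, 71.0 and 72.1 CPM per kb in the Hoxa deletion, 72.2 and 65.8 in the Wnt6 deletion and 74.9 and 74.9 in the Hmx1 deletion. Both genes, which are co-expressed in interneuron progenitors, were alike in level, and only for Dlx2 did both Hmx1 libraries lie above all others. Dlx5 (chromosome 6, 6877801 to 6882068) had 76.8, 68.7 and 67.6 CPM per kb in the Hoxa deletion, 73.2 and 64.5 in the Wnt6 deletion and 71.1 and 74.9 in the Hmx1 deletion. Dlx6 (chromosome 6, 6863334 to 6867970) had 58.1, 52.7 and 52.9 CPM per kb in the Hoxa deletion, 55.1 and 49.4 in the Wnt6 deletion and 56.8 and 57.8 in the Hmx1 deletion. Replicate 1 of the Hoxa deletion was the highest library at both genes, and the other 2 Hoxa libraries lay within the range of the other deletions. Dlx3 (chromosome 11, 95120117 to 95125296) had 53.7, 51.1 and 50.4 CPM per kb in the Hoxa deletion, 53.4 and 51.3 in the Wnt6 deletion and 53.1 and 53.1 in the Hmx1 deletion. Dlx4 (chromosome 11, 95140447 to 95146294) had 49.0, 46.0 and 46.3 CPM per kb in the Hoxa deletion, 44.7 and 44.9 in the Wnt6 deletion and 43.4 and 49.0 in the Hmx1 deletion. The groups overlapped at both genes.

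In this order, Dlx5 lay above Dlx6 and Dlx3 above Dlx4 in 7 of 7 libraries, with ranges that did not overlap. The ranges of Dlx1 and Dlx2, of Dlx2 and Dlx5, and of Dlx6 and Dlx3 overlapped. All 6 genes lay high among the 17003 protein-coding gene windows with a peak, whose median was 10.9 CPM per kb and whose 90th percentile was 39.7. Dlx1, the highest, lay at percentile 98.9 and Dlx4, the lowest, at percentile 92.9.

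**Figure D2:**
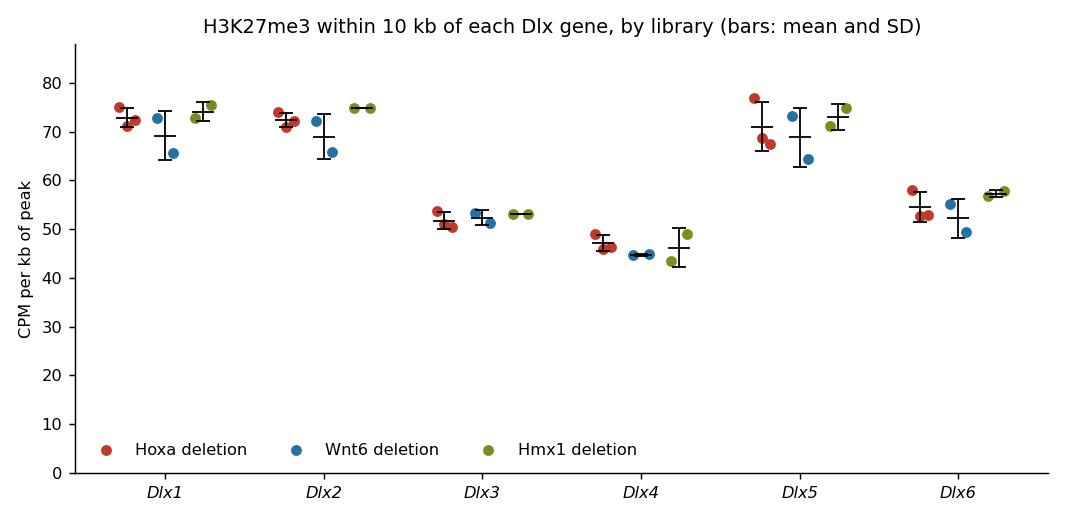
H3K27me3 within 10 kb of each Dlx gene in CPM per kb of peak (y axis), with a point for each of the 7 libraries and black bars for the mean and SD of each deletion (n = 3, 2 and 2). The deletions overlap at each gene except Dlx2, where both Hmx1 libraries, each at 74.9, lie above the others.

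In the Hoxa deletion, none of the 42 Dlx peaks was called changed, which took an adjusted p under 0.05 and a log2 fold change beyond 1 in either direction, against 1.55% of all 74441 peaks tested (edgeR quasi-likelihood test). Their median log2 fold change was -0.0087, and the 95% interval of each of the 42 lay within 1 log2 unit of 0. For 37 of them it lay within 0.5. At an unadjusted p under 0.05 there were 3 Dlx peaks, against 20.8% of all peaks. Of these, 1 was higher and 2 were lower. In 1 of the 42 all Hoxa libraries lay beyond all others, against 18.3% of all peaks. By pair, the median was -0.0087 at Dlx5-Dlx6, -0.0087 at Dlx1-Dlx2 and -0.0061 at Dlx3-Dlx4. Of the 3978 tested peaks on chromosome 6, 131 were called, with the deleted Hoxa region not taken out, and their median was 0.015 over all 3978. At Dlx5-Dlx6, 0 of 16 were called.

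The peak with the smallest p lay between Dlx3 and Dlx4 (chr11:95125491-95125781). It had 10.8, 10.4 and 16.0 CPM in the Hoxa deletion, 8.13 and 9.56 CPM in the Wnt6 deletion and 10.6 and 9.13 CPM in the Hmx1 deletion. Replicate 3 stood above the rest, and the other 2 Hoxa libraries overlapped the Hmx1 deletion. Relative to the other deletions its log2 fold change was 0.41 (SE 0.15, adjusted p = 0.0807 in edgeR). The adjusted p was 0.0453 without replicate 2 of the Hoxa deletion and 0.0443 without replicate 1 of the Hmx1 deletion, with the fold change short of the minimum in both fits. At Dlx5-Dlx6 the smallest p belonged to a weak peak beyond the outer end of Dlx6 (chr6:6853434-6853772). It had 4.94, 6.99 and 6.51 CPM in the Hoxa deletion, 9.16 and 8.10 CPM in the Wnt6 deletion and 7.94 and 8.26 CPM in the Hmx1 deletion. All 3 Hoxa libraries lay below the other 4, with a log2 fold change of -0.40 (SE 0.16, adjusted p = 0.117 in edgeR). At Dlx1-Dlx2 the smallest p was that of a peak between the genes (chr2:71538787-71540167), with a log2 fold change of 0.10 (SE 0.082, adjusted p = 0.520 in edgeR). None of these 3 peaks passed the threshold.

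**Figure D3:**
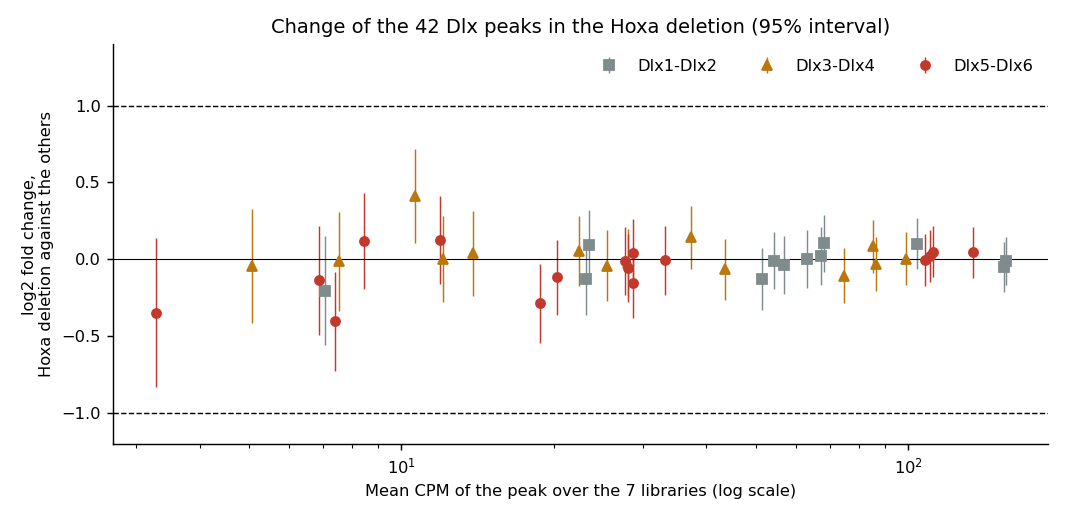
Log2 fold change of each of the 42 Dlx peaks in the Hoxa deletion against the other deletions (y axis, with 95% intervals) by mean CPM over the 7 libraries (x axis, log scale), with a symbol for each pair. Dashed lines mark 1 log2 unit, which no interval reaches, and the largest changes are at weak peaks.

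The gene windows, which pool the counts of a locus, set narrower limits. No Dlx gene was called in the Hoxa deletion at an adjusted p under 0.05, against 19.0% of 17007 gene windows. None had an unadjusted p under 0.05, against 29.8% of windows. Dlx5 had a log2 fold change of -0.045 (SE 0.058, adjusted p = 0.667 in edgeR), with a 95% interval from -0.16 to 0.073. Dlx6 had a log2 fold change of -0.053 (SE 0.056, adjusted p = 0.587 in edgeR), with an interval from -0.17 to 0.061. The other 4 genes, on chromosomes without a deletion, ranged from -0.075 at Dlx3 to -0.0023 at Dlx4. These fits took totals and TMM factors over the windows, while CPM took them over the peaks, so signs near 0 can differ. At Dlx4 the mean level was 47.1 CPM per kb in the Hoxa deletion, above 44.8 in the Wnt6 and 46.2 in the Hmx1 deletion. Over all 6 genes the intervals ran from -12.3% to 8.60% of the level in the other deletions. The median log2 fold change over all windows was 0.0038.

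The pair in cis was also set against the other pairs within each library, so that depth cancels. The log2 ratio of the counts at Dlx5-Dlx6 to the mean of both other pairs was 0.068, 0.011 and -0.019 in the Hoxa deletion, 0.056 and -0.034 in the Wnt6 deletion and 0.037 and 0.046 in the Hmx1 deletion. The groups overlapped. The 3 Hoxa libraries had a mean of 0.020 ± 0.044 (SD) and the other 4 libraries a mean of 0.026 ± 0.041 (SD). The difference of -0.0064 was smaller than the spread between libraries (two-sided exact permutation test, p = 0.857, where the smallest p that 35 splits allow is 0.0286).

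In the Wnt6 deletion, no Dlx peak was called, against 0.0497% of all peaks, and none had an unadjusted p under 0.05, against 5.20%. In no Dlx peak did both Wnt6 libraries lie beyond the rest, against 10.1% of all peaks. The median over the 42 peaks was -0.059 on the log2 scale. No Dlx gene window was called, against 0.0353% of windows, and none had an unadjusted p under 0.05, against 5.85%. The log2 fold changes ran from -0.064 at Dlx6 to 0.031 at Dlx3, with intervals between -0.22 and 0.18.

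In the Hmx1 deletion, no Dlx peak was called either, against 0.0282% of all peaks. At an unadjusted p under 0.05 there were 4 Dlx peaks, all higher, against 8.95% of all peaks in either direction. In 9 of the 42 both Hmx1 libraries lay beyond all others, 7 higher and 2 lower, against 14.9% of all peaks in either direction. Both lower peaks were at Dlx3-Dlx4. By pair, the median log2 fold change was 0.089 at Dlx1-Dlx2, 0.10 at Dlx5-Dlx6 and -0.076 at Dlx3-Dlx4. At Dlx3-Dlx4, 8 of the 14 peaks were lower and 6 were higher. Of the 7 peaks that lay above all others, 6 were at Dlx1-Dlx2. The strong peak over the Dlx2 promoter (chr2:71545586-71547001) was among them, with 175 and 161 CPM in the Hmx1 deletion, 153, 142 and 159 CPM in the Hoxa deletion and 152 and 139 CPM in the Wnt6 deletion. On the log2 scale it differed by 0.18 (SE 0.079, adjusted p = 0.536 in edgeR). The peak was chosen here after its values were seen.

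Among gene windows in the Hmx1 deletion, none of the 6 was called, against 0.112% of windows, and 2 had an unadjusted p under 0.05, against 17.1%. These were Dlx2, with a log2 fold change of 0.11 (SE 0.041, adjusted p = 0.228 in edgeR), and Dlx6, with 0.12 (SE 0.054, adjusted p = 0.274 in edgeR). All 6 values were above 0, and the intervals ran from -7.86% to 18.4%. The lowest was 0.032 at Dlx4, whose mean level of 46.2 CPM per kb lay between 44.8 in the Wnt6 and 47.1 in the Hoxa deletion. The median of the 6 was 0.085 on the log2 scale, against -0.012 over all windows. Of the lists described below, the regulators had a median of 0.12, the downstream genes 0.10 and the fibroblast genes 0.088. The neighbours had -0.097 and the pluripotency genes -0.051. The strongest 1% of all peaks held 16.9% of the counts in both Hmx1 libraries and 15.4% to 16.6% in the others. The part of this in the values of the Dlx genes was not tested.

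**Figure D4:**
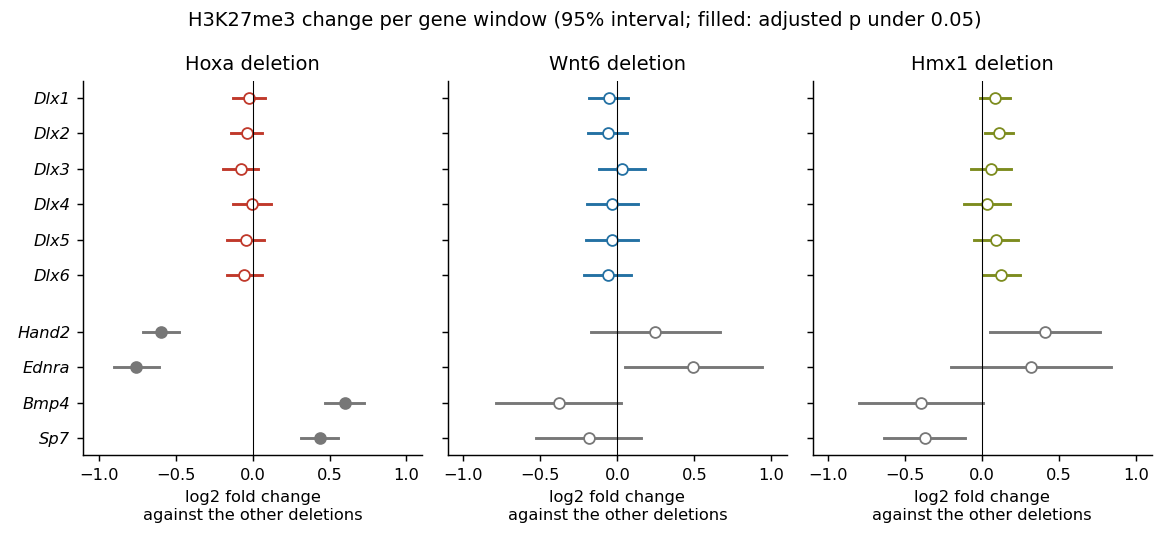
Log2 fold change of H3K27me3 per gene window in each deletion against the other deletions (x axis), with 95% intervals, for the 6 Dlx genes (coloured) and 4 genes of the Dlx pathway (grey). Filled points have an adjusted p under 0.05. No Dlx gene is filled. The 4 grey genes, filled in the Hoxa deletion, are shown because they were the ones called among 12 regulators and 19 downstream genes. Of all windows, 19.0% were called in that deletion. Hand2 and Ednra lie on chromosome 8, whose peaks were lower as a whole in it.

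The noncoding partners of the Dlx genes, which are transcribed from or across the same loci, share peaks with them. Dlx1as, Dlx4os, Dlx6os1 and Dlx6os2 had 40.2 to 77.9 CPM per kb, and 0 of 4 were called in each deletion, against 19.0%, 0.0353% and 0.112% of all windows in the Hoxa, Wnt6 and Hmx1 deletions. The next genes on either side of the pairs mostly carried little of the mark. Itga6, Hat1, Kat7, Tac4, Itga3, Sem1, Sdhaf3 and Asns had 5.55 to 12.9 CPM per kb. Metap1d, whose window reaches into the Dlx1-Dlx2 peaks, had 53.1. None of the 9 neighbours was called in any deletion, against the same shares. At unadjusted p under 0.05, 3 of the 4 partners, which share peaks, and 2 of the 9 neighbours were counted in the Hmx1 deletion, against 17.1% of all windows. The 3 partners were higher (0.11 to 0.12 on the log2 scale). The 2 neighbours, Tac4 and Itga3 beside Dlx3-Dlx4, were lower (-0.26 and -0.29). Both lists had 0 in the Hoxa deletion, against 29.8%, and 0 in the Wnt6 deletion, against 5.85%.

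Of 12 genes known to regulate Dlx expression, 3 passed the test in the Hoxa deletion (2 lower and 1 higher), with a median log2 fold change of -0.059 against 0.0038 over all windows. The share of all windows called in this comparison was 19.0%, so the count is close to the background. Hand2, a bHLH factor of the branchial arches, fell by 0.59 on the log2 scale (SE 0.059, adjusted p = 7.0e-10 in edgeR). It had 44.0, 41.4 and 37.8 CPM per kb in the Hoxa deletion and 53.4 to 62.9 in the others. Ednra, the endothelin receptor upstream of Dlx5 and Dlx6 in the arches, fell by 0.76 (SE 0.072, adjusted p = 2.6e-10 in edgeR). Its levels were 18.4, 17.8 and 16.9 CPM per kb in the Hoxa deletion and 27.3 to 32.9 in the others. Both lie on chromosome 8, whose 5580 peaks were lower as a whole in these libraries, with a median log2 difference of -0.51 against 0.017 on the other chromosomes. Bmp4, a secreted signal of the arches and skin, rose by 0.60 (SE 0.063, adjusted p = 2.4e-09 in edgeR), from 15.7 to 17.1 CPM per kb in the other deletions to 26.0, 27.1 and 24.7. The groups did not overlap at any of the 3 genes. Shh, Fgf8 and Gsx1, at 62.2, 61.5 and 59.5 CPM per kb, had the highest levels of the list and were not called.

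Of 19 genes downstream of or acting with Dlx proteins, 1 was called in the Hoxa deletion, against 19.0% of all windows, with a median of -0.067 over the list. Sp7, a zinc finger factor of osteoblasts also known as osterix, rose by 0.44 (SE 0.059, adjusted p = 5.5e-07 in edgeR). It had 44.7, 40.5 and 40.5 CPM per kb in the Hoxa deletion and 28.1 to 31.8 in the others, without overlap. Sp8, Lhx6 and Pitx1 had the highest levels, at 77.0, 74.0 and 68.0 CPM per kb, and were not called. In the Wnt6 and Hmx1 deletions, 0 of the 12 and 0 of the 19 were called, against 0.0353% and 0.112% of all windows. At unadjusted p under 0.05, these lists had 1 and 0 in the Wnt6 deletion, against 5.85% of all windows, and 4 and 5 in the Hmx1 deletion, against 17.1%.

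For each pair, the protein-coding genes more than 1 Mb from any Dlx gene with the most similar levels were taken from 8386 genes with at least 3 peaks, by the root mean square difference in log2 CPM per kb over the 7 libraries. For Dlx1-Dlx2 these were Zfp503, Kcnk12 and Slc18a3, with differences of 0.018 to 0.031. For Dlx3-Dlx4 they were Atoh8, Ccdc151 and Foxb1, at 0.026 to 0.029. For Dlx5-Dlx6 they were Barhl2, Gfra1 and Hand1, with differences of 0.023 to 0.027. Hand1, a bHLH factor, is also among the regulators above.

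Library totals over the peaks ran from 6016500 to 36563541 counts, and the 42 Dlx peaks held 0.201% to 0.214% of them in every library. A single Dlx peak had between 22 and 5310 counts in a library. Counts at the deleted genes checked the labels. Over Hoxa2 to Hoxa13, the Hoxa libraries had at most 2.98 CPM and the others at least 1741 CPM. The own libraries had at most 14.0 CPM at Wnt6 and 2.03 CPM at Hmx1, against at least 421 and 455 CPM in the others. As a check of the cell type, 8 of 10 pluripotency genes had a peak, with a median of 8.66 CPM per kb. Of the fibroblast genes, 7 of 8 had a peak, with a median of 21.5. The median over all protein-coding windows was 10.9. The lists overlapped, from 5.73 (Nanog) to 18.5 (Sox2) and from 3.10 (Postn) to 48.9 (Twist2). The check goes only as far as a repressive mark can show the cell type. Of the 8 pluripotency genes with a peak, 3 were called in the Hoxa deletion, against 19.0% of all windows. Klf4 rose by 0.55 and Tfcp2l1 by 0.78 on the log2 scale, and Dppa3 fell by 0.27 (adjusted p = 1.3e-05, 0.0011 and 0.0474 in edgeR). The call of Dppa3 was lost in DESeq2 and without replicate 1 or 3 of the Hoxa deletion or replicate 2 of the Hmx1 deletion, and that of Tfcp2l1 with peaks on the gene body alone. None of the fibroblast genes was called, against 19.0%, 0.0353% and 0.112% of all windows in the Hoxa, Wnt6 and Hmx1 deletions. None had an unadjusted p under 0.05, against 29.8%, 5.85% and 17.1%. The part of these differences in the values of the Dlx genes was not tested.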

How the data were processed

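H3K27me3 Cut&Tag was performed in mESCs with deletions at Hoxa, Wnt6 or Hmx1. The authors deposited raw counts over a shared list of peaks, without normalization, for the 7 H3K27me3 libraries. The processing notes name Trimmomatic, Bowtie2, SAMtools, Picard, MACS2, deepTools and mm10. How the peak list was made, whether duplicates were removed and whether reads or fragments were counted is not given in the sources used here. PCR copies without molecular identifiers are not independent molecules. A list called on some libraries can favour peaks that are strong in them. Whether peak starts count from 0 or 1 is not stated. The 7 IgG libraries were not analysed here, so no background was subtracted.

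Columns and groups were taken from the titles. Gene bodies and promoters are from RefSeq GRCm38.p6. Counts were fitted with edgeR 4.0.16 in R 4.3.3 (glmQLFit, glmQLFTest, TMM factors, filterByExpr by genotype, which removed 17 peaks and no Dlx peak). Each deletion was compared with the other 2 pooled. Window fits took totals and TMM factors over the windows, and CPM took them over the peaks. A peak was called at a Benjamini-Hochberg adjusted p under 0.05 with a log2 fold change beyond 1 in either direction, and gene windows, the summed peaks within 10 kb of each protein-coding gene and the 4 noncoding partners, at an adjusted p under 0.05. Standard errors and 95% intervals were derived from the F statistic. The chromosome medians used mean CPM plus 0.5. The ratio between pairs was tested by an exact permutation test in Python 3.11.15. The fits were tested on simulated data.

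The Dlx genes and the lists were chosen with earlier results of these data known. Named were the 6 genes, the strongest peak and the peak with the smallest p in the Hoxa comparison at each pair, listed partners, neighbours, called genes of the lists and those of highest level, and the most similar genes. Alternatives were each library left out, DESeq2 1.42.0, no filter or a mean count filter of 20, scaling by RLE factors or by totals, genotype terms, a comparison with only 1 of the other deletions, a replicate block, fits without chromosome 8, other windows (0 and 50 kb) and other fold minimums. For the ratio, each other pair alone and a mean over peaks were added.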

Additional observations from a re-analysis of the deposited data

How the results depend on the processing

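No Dlx peak within 10 kb and no Dlx gene was called in any of the 3 comparisons under any alternative run, DESeq2 included. The lowest adjusted p of a Dlx peak within 10 kb was 0.0443 in the Hoxa, 0.114 in the Wnt6 and 0.0947 in the Hmx1 deletion. The peak between Dlx3 and Dlx4 passed an adjusted p of 0.05 without replicate 2 of the Hoxa deletion (0.0453) and without replicate 1 of the Hmx1 deletion (0.0443), but not the fold minimum. With peaks within 50 kb, 1 of 68 was called in the Hoxa deletion, against 1.55% of all peaks. It had 1.83 CPM and lies 32.6 kb outside Dlx3 (chr11:95087181-95087514, log2 fold change 1.12, SE 0.33, adjusted p = 0.0207 in edgeR). Over all alternatives the lowest adjusted p of a Dlx gene was 0.133 in the Hoxa, 0.213 in the Wnt6 and 0.0629 in the Hmx1 deletion. Levels per pair moved with the window, to 91.5 (0 kb) and 62.0 (50 kb) CPM per kb at Dlx1-Dlx2, 59.7 and 35.6 at Dlx3-Dlx4 and 69.7 and 45.7 at Dlx5-Dlx6, and the order of the pairs stayed the same.

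Log2 fold changes near 0 changed sign, none of them called. In the Hoxa deletion, with library totals alone they were 0.020 at Dlx1, 0.0044 at Dlx2, 0.040 at Dlx4 and 0.0028 at the strongest Dlx1-Dlx2 peak. Against the Wnt6 deletion alone they were 0.033 at Dlx1, 0.027 at Dlx2, 0.023 at Dlx4, 0.0037 at Dlx5, 0.020 at Dlx6 and 0.078 at the strongest Dlx1-Dlx2 peak. Against the Hmx1 deletion alone they were -0.053 at the strongest Dlx3-Dlx4 peak and -0.049 at the strongest Dlx5-Dlx6 peak, and without chromosome 8 -0.027 at the former. In the Wnt6 deletion Dlx3 was -0.018 against the Hmx1 deletion alone and -0.0063 with 50 kb, and in the Hmx1 deletion Dlx4 was -0.017 with library totals alone. With a library left out, values in the Hoxa deletion ran from -0.049 to 0.011 at Dlx1, from -0.035 to 0.043 at Dlx4 and from -0.10 to 0.0052 at Dlx5, and at the strongest peaks from -0.069 to 0.025 (Dlx1-Dlx2), from -0.044 to 0.054 (Dlx3-Dlx4) and from -0.028 to 0.081 (Dlx5-Dlx6). In the Wnt6 deletion they ran from -0.081 to 0.011 at Dlx4 and from -0.087 to 0.012 at Dlx5, and in the Hmx1 deletion from -0.080 to 0.15 at Dlx4.

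The mean log2 ratio of Dlx5-Dlx6 to the other pairs was compared between the Hoxa libraries and the others. The difference of the means turned from -0.0064 to 0.031 with peaks on the gene bodies alone (0 kb, exact permutation p = 0.400). It was -0.080 as the mean of log2 CPM per peak (exact permutation p = 0.171), its largest move, and -0.039 with 50 kb (exact permutation p = 0.257), and it ran from -0.030 to 0.013 with a library left out. The replicate numbers did not pair the samples (correlations of the deviations of same-numbered libraries between -0.059 and 0.074 over 6 pairs). With the replicate number as a block the difference in the ratio was 0.013 (exact permutation p = 0.778, over 9 splits without replicate 3 of the Hoxa deletion). In the block fits Dlx4 was 0.031 and Dlx5 0.0046 in the Hoxa deletion, and no Dlx peak or gene was called. Hand2, Ednra, Bmp4, Sp7 and Klf4 kept their call and direction under DESeq2, the other scalings, filters and windows, the block, genotype terms, each other deletion alone and each library left out. Without chromosome 8, Bmp4, Sp7 and Klf4 kept theirs, and Hand2 and Ednra, which lie on it, have no value. A log2 fold minimum of 1, tried for the Dlx genes, would remove all 5 calls. Tfcp2l1 lost its call with peaks on the gene body alone (adjusted p = 0.0694), and Dppa3 lost its call under 8 alternatives, DESeq2 (adjusted p = 0.0600), the block and leaving out replicate 1 or 3 of the Hoxa deletion or replicate 2 of the Hmx1 deletion among them. The cause was not tested. Weak peaks, with as few as 22 counts, limit the precision.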
